A study of Homo sapiens with 3 samples.

Results

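The genes described here are the cyclins, cyclin-dependent kinases (CDKs), CDK inhibitors, pocket proteins and E2F transcription factors, with their closest partners: 47 of the 58381 genes in the count table. They were chosen by symbol, through the Ensembl identifiers of the table, by a rule that uses no measured value. RNA was sequenced from T24, a human bladder carcinoma line, in 3 conditions with 1 library each. Ctrl was labelled as control and RT as control with radiation exposure, while RT + shHDAC6 was labelled as irradiated with an shRNA against HDAC6, a deacetylase that acts largely in the cytoplasm. The labels give a 137Cs source at 10 Gy in a protocol worded alike for all 3 samples, and Ctrl, whose treatment label names no radiation, is taken as unirradiated. The sources describe lentiviral infection and puromycin selection for the HDAC6 shRNA and for a control pLKO.1 vector, and elsewhere the comparator is called parental. The time from irradiation to harvest is not given in the sources used here, and no library of unirradiated cells with the HDAC6 shRNA was analysed here.

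In a dividing cell, D-type cyclins with CDK4 or CDK6 and then E-type cyclins with CDK2 phosphorylate the pocket proteins RB1, RBL1 and RBL2. Phosphorylation of RB1 frees the activator E2Fs to transcribe genes for DNA replication. Cyclin A and cyclin B with CDK1 drive the later phases, with WEE1 and PKMYT1 placing inhibitory phosphates on CDK1 and the CDC25 phosphatases removing them. INK4 proteins inhibit CDK4 and CDK6, and CIP/KIP proteins inhibit CDK2 complexes. After DNA damage, cells can stop at the borders of these phases, and many of the genes are themselves transcribed in 1 phase only. In bulk RNA, fewer cells in a phase and less RNA per cell cannot be told apart.

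Each gene was measured as a count of reads, and its difference between 2 libraries as a log2 ratio after TMM scaling, which sets library sizes from the bulk of genes. Square brackets hold 95% Clopper-Pearson intervals, which cover counting error only: the reads carry no molecular identifiers and so do not count molecules one by one. With 1 library per condition there is no replicate check and no test, and no difference below can be set against the spread between cultures. A gene is said to have risen or fallen where it differed at least 1.5-fold, provided that the higher of the 2 libraries had at least 10 counts. Total counts were 41811165 (Ctrl), 35959265 (RT) and 35424086 (RT + shHDAC6), and 3 counts, levels or count ratios given in a row below follow this order. Mitochondrially encoded RNA took 3.75%, 6.09% and 5.51% of them, and its part in the differences was not tested. The 47 genes took 0.373%, 0.366% and 0.413% of the counts, and 45 of them had at least 100 counts in every library. A count of 0 would allow up to 0.0662, 0.0894 and 0.0857 CPM (3 counts, in units of CPM, the counts of a gene scaled to a common library size), but no member was at 0. HDAC6 itself had 3098, 2383 and 2170 counts, so that its level in the library labelled RT + shHDAC6 was 87.2% of its RT level, a log2 ratio of -0.20. That is short of 1.5-fold, so the RNA counts do not show a strong knockdown, and RT + shHDAC6 below names the library as labelled. By qPCR and Western blot, the study reported lower HDAC6 RNA and protein in T24 cells with the HDAC6 shRNA. Of 11 epithelial and urothelial markers, 2 were at 0 in Ctrl and 1 in each irradiated library, and their summed level was 362, 456 and 359 CPM. The summed levels of 4 haematopoietic markers were 7.43, 5.13 and 4.66 CPM, and those of 3 endothelial markers 23.1, 14.5 and 19.2. Of the endothelial markers, PECAM1 had 489, 209 and 323 counts. The summed levels of 4 mesenchymal markers were 2729, 2241 and 2771 CPM, nearly all of it vimentin, while DCN had 1085, 525 and 683 counts. The part of any of these shifts in the differences below was not tested.

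The promoters of 5 members are shown for letters known from cell cycle promoters. CCNB2, CKS2 and CKS1B hold them in like places while their RNA differed in direction between the libraries. CDK1 and CDC25A, which both rose in RT, are picked from the members that hold an E2F core. Of the others with such a core, CDKN2C also rose, while CDC25B and CDC25C had log2 ratios of -0.28 in RT against Ctrl. CDK4 and CCNF rose with no E2F core in their windows. Promoter windows from RefSeq (GRCh38.p14, 250 bases before to 50 after the start) were found for 38 of the 47 genes. The motifs were searched on both strands, and a gene with several windows was counted where any of them held the motif. The E2F cores TTCCCGC or TTGGCGC stood in the windows of 12 of these 38 genes (31.6%, against 10.96% of 27305 genes). The cell cycle homology region (CHR) TTTGAA or TTCGAA, the letters bound by the MuvB complex, stood in 14 (36.8%, against 19.54%). The CCAAT box stood in 21 (55.3%, against 39.72%), and a CHR with a CCAAT box in the same window in 10 (26.3%, against 7.85%). Over all 35116 windows the shares were 9.23% (E2F core), 16.35% (CHR), 34.61% (CCAAT box) and 6.38% (CHR with CCAAT box). A gene with more windows is more easily counted, and members were not matched to other genes in window number. Capitals mark these motifs on either strand, so that TTCAAA is a reversed CHR and ATTGG a reversed CCAAT box.
CCNB2, chr15:59104896-59105195, plus strand: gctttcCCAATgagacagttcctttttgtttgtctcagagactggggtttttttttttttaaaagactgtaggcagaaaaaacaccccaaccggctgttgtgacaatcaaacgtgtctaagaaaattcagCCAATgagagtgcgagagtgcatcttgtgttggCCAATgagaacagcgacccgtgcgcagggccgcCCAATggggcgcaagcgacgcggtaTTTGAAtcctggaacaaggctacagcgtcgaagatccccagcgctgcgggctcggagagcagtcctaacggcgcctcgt
CKS2, chr9:89310945-89311244, plus strand: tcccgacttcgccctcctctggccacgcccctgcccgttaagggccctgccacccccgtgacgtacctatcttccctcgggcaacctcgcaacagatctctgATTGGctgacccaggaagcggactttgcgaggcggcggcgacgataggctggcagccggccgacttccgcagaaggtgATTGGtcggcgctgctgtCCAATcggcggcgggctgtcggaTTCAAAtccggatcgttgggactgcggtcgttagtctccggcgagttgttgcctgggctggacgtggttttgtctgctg
CKS1B, chr1:154974431-154974730, plus strand: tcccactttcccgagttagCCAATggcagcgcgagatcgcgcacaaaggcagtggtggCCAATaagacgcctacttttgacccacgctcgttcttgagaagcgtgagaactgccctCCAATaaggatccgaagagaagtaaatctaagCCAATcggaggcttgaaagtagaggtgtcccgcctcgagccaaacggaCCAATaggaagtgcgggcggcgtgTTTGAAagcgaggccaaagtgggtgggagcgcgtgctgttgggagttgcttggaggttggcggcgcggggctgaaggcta
CDK1, chr10:60778081-60778380, plus strand, 1 of 2 windows: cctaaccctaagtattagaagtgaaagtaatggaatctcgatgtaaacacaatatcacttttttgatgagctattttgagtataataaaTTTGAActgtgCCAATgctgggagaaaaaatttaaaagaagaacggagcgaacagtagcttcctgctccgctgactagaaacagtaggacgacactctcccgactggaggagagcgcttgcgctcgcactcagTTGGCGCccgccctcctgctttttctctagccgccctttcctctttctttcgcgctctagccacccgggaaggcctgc
CDC25A, chr3:48188368-48188667, minus strand: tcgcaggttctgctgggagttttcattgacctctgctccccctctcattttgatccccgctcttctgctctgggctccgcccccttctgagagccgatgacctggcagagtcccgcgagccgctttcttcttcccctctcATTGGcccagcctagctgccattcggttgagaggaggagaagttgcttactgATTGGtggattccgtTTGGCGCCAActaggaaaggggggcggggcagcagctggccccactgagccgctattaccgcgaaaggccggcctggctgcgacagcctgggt
In CCNB2 the CHR began 29 bases before the start and the nearest CCAAT box 54 bases before it. CKS2 held the same pair at 29 and 52 bases, and CKS1B at 30 and 54. These 3 windows are alike in those distances, though the CHR of CKS2 is on the other strand. From Ctrl to RT, however, CCNB2 fell and CKS1B rose, while CKS2 had a log2 ratio of -0.32. The window of CDK1 shown held an E2F core 28 bases and a CHR 161 bases before the start, and its other window, from a later start, held the E2F core at 175 bases and CHRs at 69 and 13 bases before that start and 9 bases after it. No CHR stood in the window of CDC25A, which held 2 overlapping E2F cores at 43 and 40 bases. A match of letters is a description and does not show that a factor was bound.

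The comparison of RT with Ctrl asks what differs after irradiation. PKMYT1, which restrains CDK1, was 3.14-fold higher in RT, and CCNF, CDC25A, E2F8, CDK1, CDK4, CDKN2C and CKS1B also rose. The CDK4 and CDK6 inhibitors CDKN2B and CDKN2D fell, as did CCNB2, CDK7 and, on few counts, CCND2 and CDKN1C. Of the 47 members, 8 rose (17.0%, where 14.5% of 20267 genes did) and 6 fell (12.8%, where 20.5% did). Both shares lie near those of all genes or below them. The shares of all genes are also the background for the counts by role group below. Among members with at least 1000 counts in either library, 8 of 40 rose (against 18.1% of 7588 such genes) and 3 fell (7.5%, against 5.27%). The median log2 ratio was 0.17 over the members, -0.06 over all genes tested and 0.09 over genes with at least 1000 counts. The counting interval lay above 0 for 25 members and below 0 for 16. Of the 7588 genes with at least 1000 counts, it lay above 0 for 3888 and below 0 for 2569. Scaling by library totals lowers every ratio of this comparison by 0.22, and then 2 members rose (CCNF and PKMYT1, against a background of 8.3%) and 10 fell (against 31.3%). Directions were thus less certain for ratios near 0: those of CDK6, CDKN1B, E2F3, E2F6, E2F7, CCNA2, WEE1 and CCNH changed sign under at least 1 of the scalings tried.

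**Figure D1:**
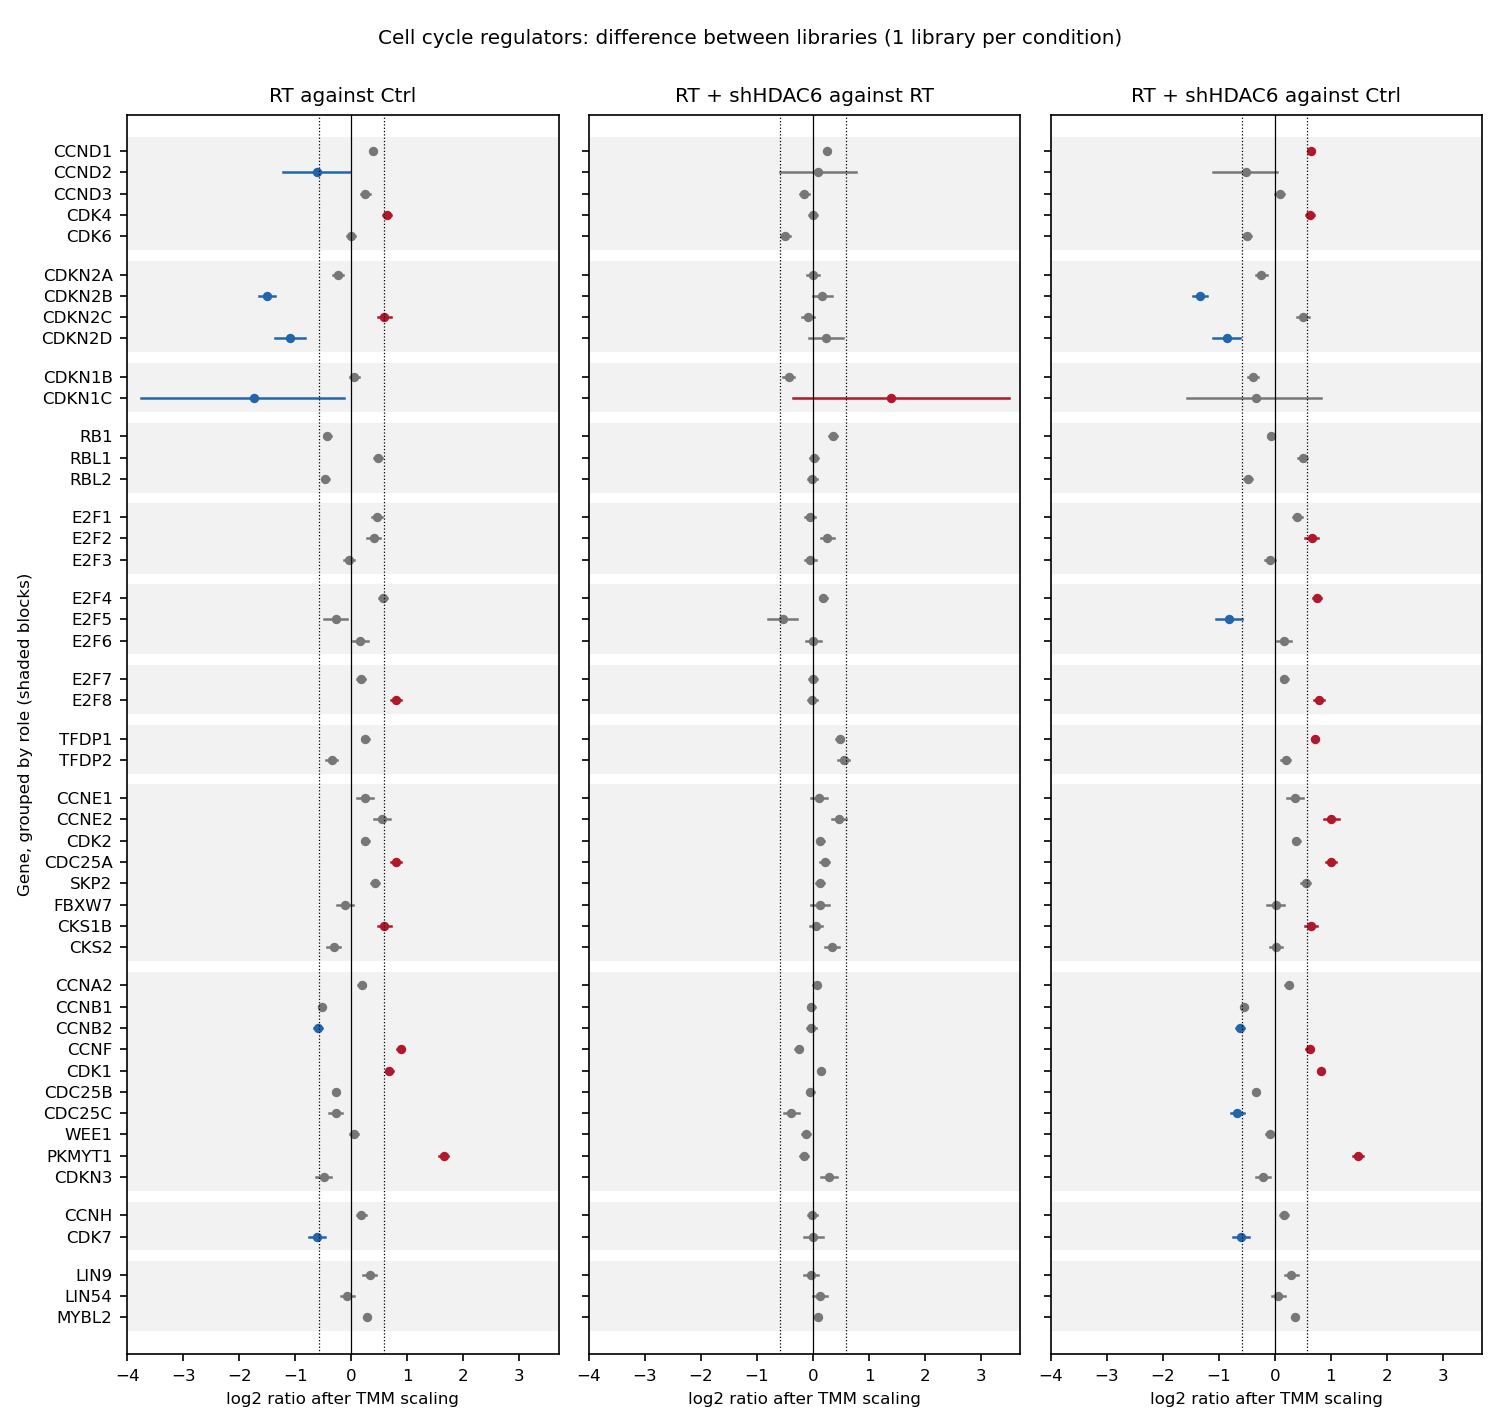
Log2 ratio (horizontal axis, TMM scaled) of each of the 47 genes in the 3 comparisons, with genes on the vertical axis in shaded blocks by role. Points are single-library ratios, horizontal bars 95% counting intervals, dotted lines mark 1.5-fold, and red and blue points are genes that rose or fell by that rule. PKMYT1 stands highest and CDKN2B among the lowest in RT against Ctrl, and in RT + shHDAC6 against RT only CDKN1C passes 1.5-fold.

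Of the 5 G1 cyclins and kinases, CDK4 rose, CCND2 fell and 3 did not pass 1.5-fold. CDK4, which phosphorylates RB1, had 3004, 3451 and 3601 counts, and rose in RT at a log2 ratio of 0.64 [0.56 to 0.71]. Its exons overlap those of TSPAN31 on the other strand over 44.2% of their length. TSPAN31 had 204, 125 and 171 counts, and the part of this overlap in the value of CDK4 was not tested. CDK6, the other partner of the D cyclins, had 3801, 2804 and 2082 counts and a log2 ratio of -0.00 in RT. The count ratio of CDK4 to CDK6 was thus 0.79 in Ctrl and 1.23 in RT. CCND1 (cyclin D1) had the most counts of all members, 28606, 27700 and 34557, and a log2 ratio of 0.39 in RT. Cyclin D3 (CCND3) stood at 0.25. CCND2 fell by 0.60 on the log2 scale [-1.21 to -0.02], but from 76 to 37 counts, so that its interval nearly reached 0.

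Of the INK4 inhibitors, CDKN2B (p15) fell most, and CDKN2C (p18) rose. CDKN2B, on chromosome 9 from 22002903 to 22009305 of GRCh38, had 2037, 533 and 625 counts. Both irradiated libraries were far below Ctrl, and the level in RT was 35.4% of that in Ctrl, a log2 ratio of -1.499 [-1.64 to -1.36]. Only 0.1% of the genes with at least 1000 counts had a lower ratio. CDKN2D (p19) had 465, 162 and 198 counts and fell by 1.09 on the log2 scale [-1.35 to -0.82]. CDKN2C had 1291, 1438 and 1409 counts and rose at 0.59 [0.48 to 0.70], just past the rule. CDKN2A, the neighbour of CDKN2B that encodes p16 and p14ARF, had 2374, 1486 and 1557 counts and a log2 ratio of -0.24. Gene counts do not separate its products, and its exons overlap CDKN2B-AS1 on the other strand over 15.3% of their length (191, 100 and 150 counts). Within the libraries, where no scaling enters, the count ratio of CDKN2B to CDKN2C was 1.58, 0.37 and 0.44. Per exon length, CDKN2C made up 23.0% of the INK4 transcripts in Ctrl and 43.3% in RT, and CDKN2B 27.4% and 12.1%.

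The CIP/KIP inhibitor CDKN1B (p27), which binds cyclin E with CDK2, had 2725, 2092 and 1615 counts and a log2 ratio of 0.05 in RT. CDKN1C (p57) was near the limit of detection with 18, 4 and 11 counts. It fell by the rule at a log2 ratio of -1.73, with an interval from -3.76 to -0.13.

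None of the 3 pocket proteins reached 1.5-fold, and their ratios lay on both sides of 0. RB1, the main brake of the activator E2Fs, had 5522, 3043 and 4067 counts and a log2 ratio of -0.42 [-0.49 to -0.36] in RT. RBL2 (p130), which is typical of resting cells, had 5508, 2949 and 3057 counts and a ratio of -0.47. RBL1 (p107), itself an E2F target, had 2985, 3076 and 3252 counts and a ratio of 0.48. The count ratio of RBL1 to RBL2 therefore went from 0.54 in Ctrl to 1.04 in RT, a log2 change of 0.94 [0.85 to 1.04]. Per exon length, RB1 was the most abundant pocket protein transcript in Ctrl (42.1%) and RBL1 in RT (38.2%, with RB1 at 35.0%).

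Among the E2Fs, only E2F8 rose. E2F8, an atypical E2F that represses E2F targets, had 1651, 2126 and 2204 counts, a log2 ratio of 0.80 [0.71 to 0.89]. Its relative E2F7 had 4328, 3610 and 3765 counts and a ratio of 0.17. The activators E2F1 (2294, 2329 and 2343 counts) and E2F2 (1216, 1189 and 1482) had ratios of 0.46 and 0.40, and E2F3 one of -0.04. E2F4, the repressor partner of RBL1 and RBL2, had 3060, 3368 and 4000 counts and a ratio of 0.57, just under the rule. E2F5, a repressor of the same kind, had 509, 311 and 223 counts and a ratio of -0.28, and E2F6 one of 0.16. The DP partners, without which E2F1 to E2F6 bind DNA poorly, stood at 0.25 for TFDP1 and -0.35 for TFDP2.

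Of the 8 genes that act at the entry into S phase, 2 rose and none fell. Of all genes tested 14.5% rose and 20.5% fell, and of those with at least 1000 counts 18.1% and 5.27%. CDC25A, the phosphatase that activates CDK2, had 1774, 2286 and 2756 counts and rose at 0.80. CKS1B, which helps SKP2 recognise p27, had 1230, 1368 and 1487 counts and rose at 0.59 [0.48 to 0.70]. CKS2, its close relative, had 1545, 918 and 1214 counts, and the count ratio of CKS1B to CKS2 went from 0.80 to 1.49. CCNE2 had 789, 852 and 1226 counts and a log2 ratio of 0.55, and CCNE1 822, 721 and 813 counts and one of 0.25. For CCNE2, 37.1% of the exon length overlaps INTS8 and ENSG00000272509 on the other strand. INTS8 had 4872, 2939 and 3039 counts, several times those of CCNE2, and a ratio of -0.29, and its part in the value of CCNE2 was not tested. CDK2 (0.25), SKP2 (0.42) and FBXW7 (-0.11), part of the ligase that marks cyclin E for destruction, completed the group.

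Of the 10 genes of S, G2 and M phases, 3 rose and 1 fell, with log2 ratios from -0.59 to 1.65. Each had at least 1000 counts in Ctrl or RT, and of all such genes 18.1% rose and 5.27% fell. PKMYT1, a kinase that holds CDK1 inactive, rose most of all members: it had 1677, 3894 and 3635 counts, with a log2 ratio of 1.65 [1.57 to 1.73]. Both irradiated libraries were above Ctrl, and 99.7% of genes at 1000 counts or more had a lower ratio. PKMYT1 lies on chromosome 16 from 2968024 to 2980479, and 31.9% of its exon length overlaps genes on the other strand. One of them, PAQR4, had 2643, 3655 and 3076 counts and a log2 ratio of 0.90. The strand setting of the counting is not given in the sources used here, so the part of PAQR4 reads in the value of PKMYT1 was not tested. WEE1, the nuclear kinase with the same target, had 3870, 2951 and 2822 counts and a log2 ratio of 0.04. CCNF (cyclin F), a ubiquitin ligase subunit, had 3726, 5077 and 4431 counts and rose at 0.88 [0.82 to 0.94]. CDK1 had 4133, 4902 and 5659 counts and rose at 0.68 [0.62 to 0.74]. Its B-type cyclins had ratios below 0. CCNB2 had 4804, 2366 and 2424 counts and fell by 0.59 on the log2 scale [-0.66 to -0.52]. CCNB1 had 8918, 4583 and 4688 counts and a ratio of -0.53 [-0.58 to -0.47], just short of 1.5-fold. Cyclin A2 (CCNA2), with 4590, 3855 and 4215 counts, stood at 0.18. The phosphatases that activate CDK1 had ratios of -0.28 for both CDC25B (7603, 4628 and 4674 counts) and CDC25C (1763, 1074 and 857 counts), and CDKN3, a phosphatase that acts on CDKs, one of -0.49.

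Ratios of 2 members within a library are free of the scaling and were read beside the log2 ratios. They were computed for 105 pairs within role groups, and those given were picked after their values were seen. The count ratio of CCNB1 to CDK1 was 2.16, 0.93 and 0.83, a log2 change of -1.21 [-1.29 to -1.13] from Ctrl to RT. That of CCNB2 to CDK1 was 1.16, 0.48 and 0.43. CDC25C against PKMYT1, which have opposite effects on CDK1, had ratios of 1.05, 0.28 and 0.24, a log2 change of -1.93 [-2.07 to -1.79]. In each of these pairs the 2 irradiated libraries lay close together and apart from Ctrl.

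**Figure D2:**
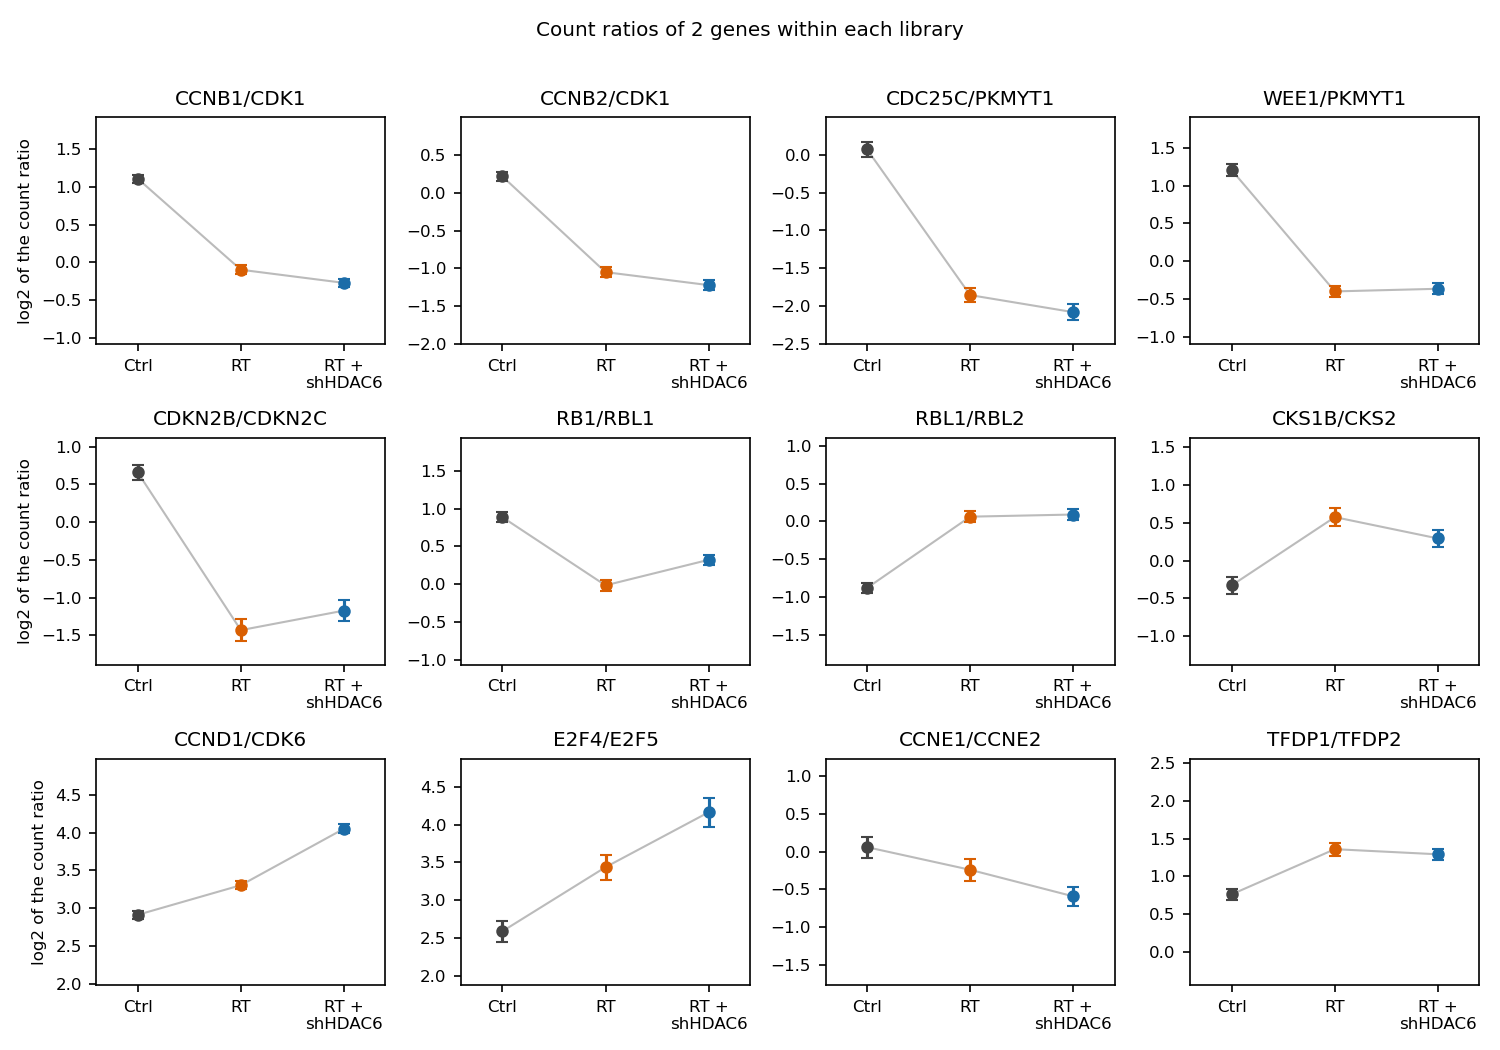
Log2 of the count ratio of 2 genes (vertical axis, the same span of 3 units in every panel) in Ctrl, RT and RT + shHDAC6 for 12 pairs, with 95% large-count intervals as error bars. The ratios of CCNB1 and CCNB2 to CDK1 and of CDC25C and WEE1 to PKMYT1 are lower in both irradiated libraries, while RBL1/RBL2 is higher; CCND1/CDK6 and E2F4/E2F5 are highest in RT + shHDAC6.

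Of the CDK-activating kinase and the MuvB group, CDK7 alone passed 1.5-fold. CDK7, the catalytic subunit, had 1213, 590 and 619 counts and fell by 0.60 on the log2 scale [-0.75 to -0.46]. Its cyclin, CCNH, had a ratio of 0.18, and MNAT1, the assembly factor of the same complex and not a member, had 914, 426 and 645 counts and fell by 0.67. LIN9 (0.33), LIN54 (-0.07) and MYBL2 (0.27), which form complexes at G2/M promoters, did not reach 1.5-fold.

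Genes downstream of these regulators were followed in lists of their own. Of 18 G1/S target genes of E2F, 5 rose in RT and 0 fell, and their median log2 ratio was 0.38. Each of them had at least 1000 counts, and of all genes at that depth 18.1% rose and 5.27% fell. Over all genes tested these shares were 14.5% and 20.5%. With library totals only RRM2 of the G1/S list rose, and with upper quartile scaling CDC45 and RRM2. RRM2, a subunit of ribonucleotide reductase, had the largest ratio at 0.91 (4172, 5804 and 6135 counts), followed by CDC45 at 0.64 and CDC6 at 0.62, both needed to load or fire replication origins. Of 18 G2/M target genes, 0 rose and 1 fell, with a median of 0.00: CENPE, a kinetochore motor, had 8539, 3850 and 4063 counts and fell by 0.71. Of 34 other cyclins, CDKs and regulators, 33 passed the filter, 0 rose and 6 fell. The largest falls with at least 100 counts were those of CCNG2 (-1.49), CCNG1 (-0.91) and MNAT1. With library totals 4 of the G2/M targets and 7 of the other regulators fell, and the medians of the G1/S and G2/M lists were 0.16 and -0.21. With that scaling 31.3% of all genes tested fell. Their median was -0.28, and that of genes with at least 1000 counts -0.12.

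The comparison of RT + shHDAC6 with RT asks what differs with the HDAC6 shRNA in irradiated cells. CDKN1C alone passed 1.5-fold: it rose by the rule from 4 to 11 counts, with an interval of the log2 ratio from -0.36 to 3.504 that includes 0. This is 1 of 47 members (2.1%, where 10.1% of 19013 genes rose), and 0 members fell (where 9.93% did). With at least 1000 counts, 0 of 37 members rose and 0 fell, against 1.17% and 3.45% of 6995 such genes. By library totals 2 members rose (CDKN1C and TFDP2, against 12.1%) and 0 fell (against 8.47%). The median log2 ratio was 0.02 over the members and -0.00 over all genes tested, and the interval lay above 0 for 16 members and below 0 for 8. Of the 6995 genes with at least 1000 counts, it lay above 0 for 2048 and below 0 for 2776. As these libraries hold enough counts for narrow intervals, small differences could be measured, but none of them can be set against the spread between cultures.

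Several members with ratios short of the rule were near the ends of the range of all genes with at least 1000 counts. Both DP partners were higher in RT + shHDAC6: TFDP2 had 2680, 1553 and 2366 counts and a ratio of 0.55 [0.45 to 0.64], above 98.5% of genes with at least 1000 counts, and TFDP1 had 4546, 3988 and 5796 counts and a ratio of 0.48, above 97.9%. CCNE2 had a ratio of 0.46 [0.34 to 0.59], above 97.6%, and RB1 one of 0.36 [0.29 to 0.42], above 95.4%. RB1 in RT + shHDAC6 lay between its levels in RT and Ctrl, and TFDP2 lay above both. At the other end, E2F5 had a ratio of -0.54 [-0.80 to -0.29], CDK6 one of -0.49 [-0.57 to -0.41] and CDKN1B one of -0.44 [-0.53 to -0.34]. Of the genes with at least 1000 counts, 5.6% had a lower ratio than CDK6 and 7.2% a lower one than CDKN1B, while E2F5, with fewer counts, has a wider counting error and was not ranked among them. CCND1 was at 0.26 [0.23 to 0.28], and the count ratio of CCND1 to CDK6 was 7.53, 9.88 and 16.60. All 8 genes of S phase entry had ratios above 0 under each scaling tried, from 0.06 to 0.46 by TMM, where the interval lay above 0 for 5 of them. In the S, G2 and M group, CDC25C (-0.39), CCNF (-0.26), PKMYT1 (-0.16) and WEE1 (-0.13) were below 0, and CDKN3 (0.29), CDK1 (0.15) and CCNA2 (0.07) above it.

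For 14 members, among them CDK4, E2F1, E2F8, CCNB1 and CCNB2, the ratio was so near 0 that its sign changed with the scaling. The G1/S targets had a median of -0.03 (0.06 with library totals) and the G2/M targets one of -0.11, and no gene of either list passed 1.5-fold. Over all genes tested the median was -0.00 (0.08 with library totals). Of the other regulators, LIN52, a MuvB subunit, rose from 349 to 556 counts at 0.61, and CDK3 from 7 to 22 counts. Beside these values, 2 of the 8 epithelial and urothelial markers that passed the filter fell, KRT7 (3533, 3854 and 597 counts, -2.75) and GATA3 (2320, 1423 and 709 counts, -1.07). The ratios of 5 others were above 0, with a median of 0.20 over the 8, and the part of these shifts in the values of the members was not tested.

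RT + shHDAC6 was also set against Ctrl, from which it differs by both irradiation and the shRNA, so that the effects of the 2 cannot be told apart here. This comparison shares a library with each of the others and is not independent of them. In it 12 members rose (25.5%, where 13.9% of 20374 genes did) and 6 fell (12.8%, where 20.5% did). With at least 1000 counts, 12 of 41 rose (29.3%, against 13.8% of 7616 genes) and 4 fell (9.8%, against 7.16%). With library totals 7 rose (14.9%, against 9.87%) and 10 fell (21.3%, against 25.8%). PKMYT1 (1.49), CDC25A (1.01), CCNE2 (1.01), CDK1 (0.83) and E2F8 (0.79) had the largest rises, followed by E2F4 (0.76), TFDP1 (0.72), E2F2 (0.66), CKS1B (0.65), CCND1 (0.65), CDK4 (0.63) and CCNF (0.62). CDKN2B (-1.33), CDKN2D (-0.86), E2F5 (-0.82), CDC25C (-0.67), CCNB2 (-0.61) and CDK7 (-0.60) fell. For CCND1 the ratios were 0.39 in RT against Ctrl and 0.65 here, and for CCNE2 0.55 and 1.01, so that these genes passed the rule only here, with the difference between RT + shHDAC6 and RT short of it. RB1, at -0.42 in RT, stood at -0.07 here. Of the 18 G1/S targets 2 rose (1 with library totals) and 0 fell, with a median of 0.35, and of the 18 G2/M targets 0 rose and 4 fell, with a median of -0.10. The largest fall of the latter was that of KIF20A, a kinesin of cell division, at -0.83.

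**Figure D3:**
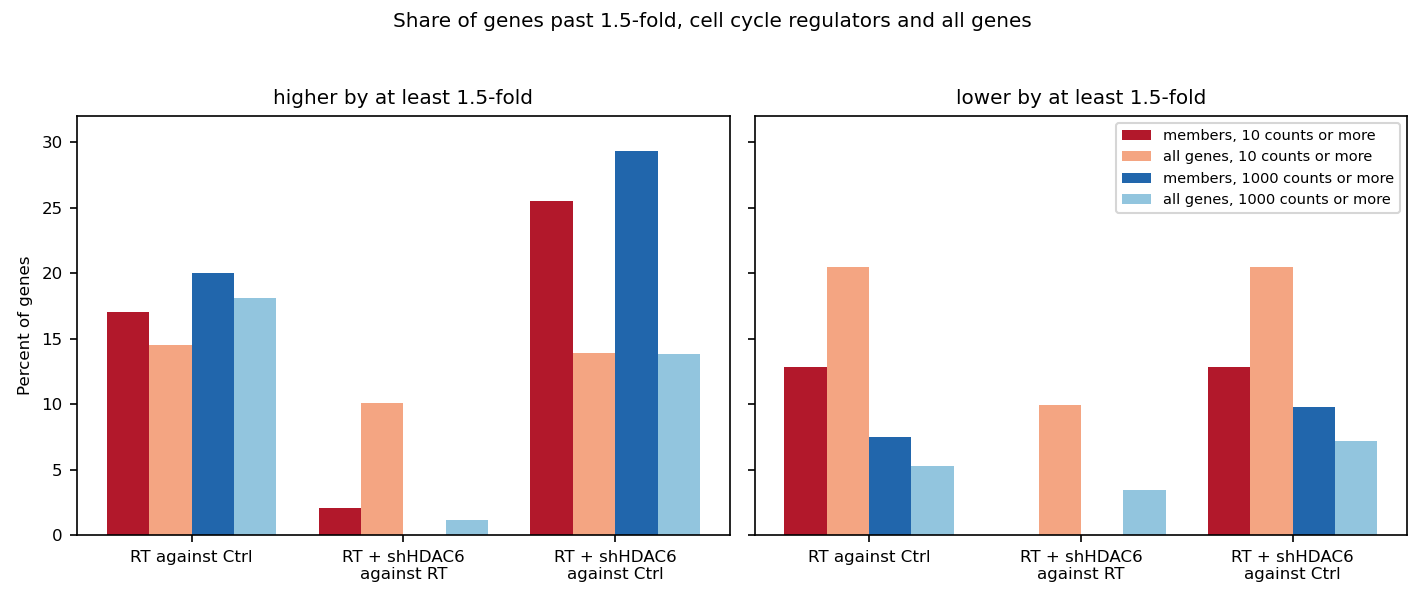
Percent of genes (vertical axis) that were at least 1.5-fold higher (left) or lower (right) in the 3 comparisons, for the members (darker bars) and for all genes (lighter bars), at a minimum of 10 or of 1000 counts. The members exceed all genes most in the rises of RT + shHDAC6 against Ctrl (25.5% against 13.9%) and stay below them in RT + shHDAC6 against RT.

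Not all called differences held under each of the 4 scalings tried (TMM, DESeq2 size factors, upper quartile and library totals). In RT against Ctrl, CCNF and PKMYT1 among the 8 rises and CDKN2B, CDKN1C and CDKN2D among the 6 falls did. In RT + shHDAC6 against Ctrl, CDC25A, CCNE2, CDK1, E2F8, TFDP1, PKMYT1 and E2F4 among the 12 rises and CDC25C, E2F5, CDKN2B and CDKN2D among the 6 falls did.

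Levels of different genes were compared as CPM divided by exon length in kilobases. CCND1 was the most abundant member in each library, at 132, 173 and 207, and made up 92.5%, 93.2% and 94.8% of D-type cyclin transcripts. CCNB1 was next in Ctrl at 80.8 and stood at 56.2 and 55.0 in the irradiated libraries. There MYBL2, at 58.7, 70.9 and 75.5 in the 3 libraries, was the next after CCND1. PKMYT1 was at 7.43, 23.3 and 20.9, and CDK1 at 23.3, 37.4 and 41.3. At the other end, CCND2 was at 0.21, 0.14 and 0.15, and CDKN1C at 0.16, 0.05 and 0.13. The share of CDK6 in the CDK4 and CDK6 transcripts was 24.2%, 17.0% and 12.8%, and that of CCNE2 in the E-type cyclin transcripts 35.0%, 39.8% and 45.8%. Among E2F1 to E2F8, E2F1 (22.1%, 23.2% and 21.7%) and E2F4 (22.1%, 25.1% and 27.7%) were the most abundant.

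**Figure D4:**
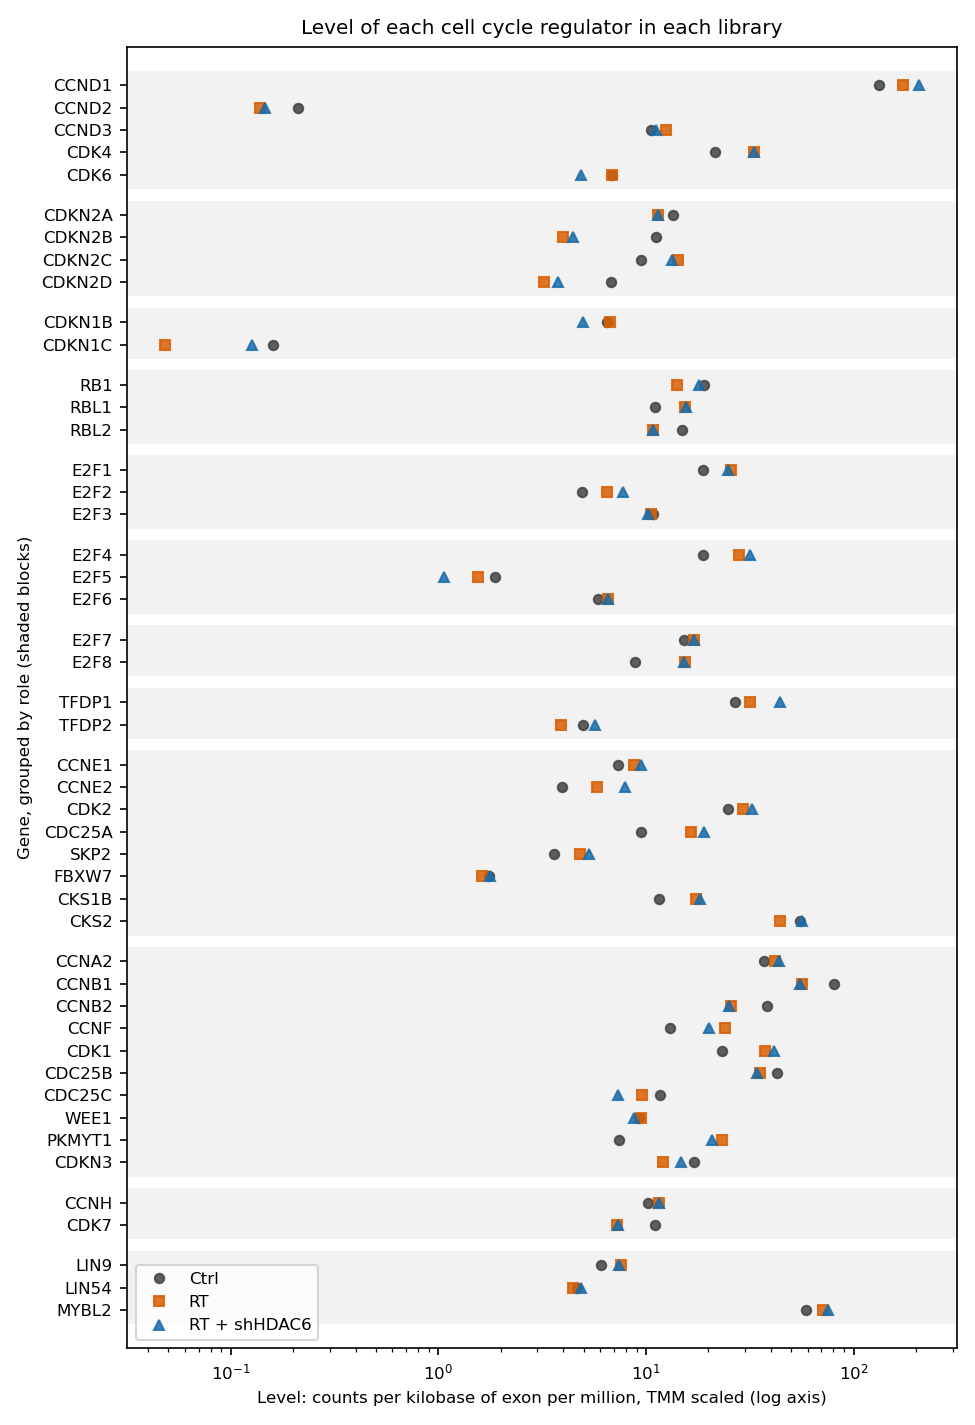
Level of each of the 47 genes (horizontal log axis, CPM, TMM scaled, divided by exon length in kilobases) in Ctrl (circles), RT (squares) and RT + shHDAC6 (triangles), 1 library each, with genes in shaded blocks by role. CCND1 lies farthest right, at 132 to 207, and CCND2 and CDKN1C farthest left, below 1.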

How the data were processed

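RNA from T24 cells was sequenced in 3 conditions (Ctrl, RT, RT + shHDAC6), 1 library each. The authors deposited whole-number read counts per gene, without normalisation. Per the labels, reads were trimmed with cutadapt and aligned to GRCh38 with STAR 2.6.1a, and the study used featureCounts with the GENCODE release 28 annotation. The kit differs between labels and methods, and the strand setting is not given in the sources used here, so overlapping genes could share counts. Symbols and positions were taken from GENCODE release 44 (57754 of 58381 identifiers named), and promoter windows from RefSeq. Every sample column of the table was used.

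TMM factors were computed with edgeR 4.0.16 and alternatives with DESeq2 1.42.0 (R 4.3.3). Log2 ratios and Clopper-Pearson intervals were computed in Python 3.11.15 (numpy 2.4.6, scipy 1.17.1), with a count of 0 set to 0.5. Totals ranged from 35424086 to 41811165 counts. Genes entered a comparison at a minimum of 10 counts in its higher library, and a difference was called at 1.5-fold. With 1 library per condition no test, p-value or SD could be had. The study called DEGs with NOISeq, whose procedure for data without replicates was rewritten (numba 0.67.0) and used as an alternative with 5 noise samples of 20% of the depth. The computation was tested on simulated data with known ratios.

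The 47 members, the role groups, the 3 further lists (34 other regulators, 18 G1/S and 18 G2/M target genes) and the cell type markers were chosen with earlier results of these data known. Counts are given for every member called in any comparison and for members that an order or a pair turns on. The HDAC6 check is given in addition, with the 3 largest rises and falls of the further lists past 1.5-fold with at least 100 counts. Alternatives were the scaling, the fold, the filter on low counts, the interval alone, the value set for 0 and NOISeq. A filter of 1000 counts was added after seeing the data. Some genes of this pathway are not reported here.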

Additional observations from a re-analysis of the deposited data

How the results depend on the processing

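No paired analysis was possible because there was 1 library per condition and no replicate number to share. No called member changed direction under any scaling tried, and the values below are counts of the 47 members unless all genes are named. By library totals, RT against Ctrl had 2 rises and 10 falls (8 and 6 by TMM), RT + shHDAC6 against RT 2 rises (1), and RT + shHDAC6 against Ctrl 7 rises and 10 falls (12 and 6), and the median of the members became -0.044 and 0.034 in these comparisons with Ctrl (0.17 in both by TMM), so that the first changed sign. A scaling moves every gene alike: over all genes tested these medians became -0.28 and -0.19 (-0.06 in both by TMM). Over genes with at least 1000 counts the median in RT against Ctrl went from 0.09 to -0.12. Upper quartile scaling gave 5 rises (against 12.65% of all genes tested) and DESeq2 size factors 3 falls (against 18.29%) in RT against Ctrl. At 2-fold, the rises and falls were 1 and 3 in RT against Ctrl and 3 and 1 in RT + shHDAC6 against Ctrl. At 1.2-fold they were 17 and 15 in RT against Ctrl, 7 and 4 in RT + shHDAC6 against RT, and 20 and 13 in RT + shHDAC6 against Ctrl. By intervals that leave out 0 they were 25 and 16, 16 and 8, and 26 and 16 in the same order. Over all genes tested in RT against Ctrl, the shares were 4.81% and 9.17% at 2-fold and 29.0% and 37.4% at 1.2-fold. By intervals they were 29.7% and 28.2%. In RT + shHDAC6 against RT the interval lay above 0 for 3736 and below 0 for 4645 of 19013 genes tested. For RT + shHDAC6 against Ctrl these numbers were 6047 and 5855 of 20374. NOISeq with a probability over 0.4 gave 25 and 16, 14 and 8, and 25 and 14, and over all genes 6602 and 7088 in RT against Ctrl. Over 0.8 it gave 1 and 2 in RT against Ctrl (2.85% and 0.77% of all genes tested), 0 rises in RT + shHDAC6 against RT, and 3 and 1 in RT + shHDAC6 against Ctrl. At these folds and by NOISeq, the shares over all genes are given for RT against Ctrl only. Counts of the other comparisons at these settings are thus not read as a trait of the members. Filters of 100 and, added after seeing the data, 1000 counts left 0 rises in RT + shHDAC6 against RT, and the latter 3 falls in RT against Ctrl, since fewer genes were tested. The single ratios moved beyond their counting intervals for 44, 24 and 40 of the 47 members with library totals, and for 4, 0 and 2 with DESeq2 size factors. Depth limits the values of CCND2 and CDKN1C, the 2 members under 100 counts. For the others the limits include the lack of replicates and the choice of scaling. For members such as PKMYT1, CCNE2 and CDK4, exon overlap on the other strand is a further limit that was not tested.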
